A study of Mus musculus with 12 samples.

Results

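Mice in which exon 5 of Grin1 is always present in the transcript were compared directly with mice in which it is always absent. The knock-in group (KI, genotype label Grin1-exon5+/+) is represented by 3 libraries and the knock-out group (KO, genotype label Grin1-exon5-/-) by another 3, which makes 6 of the 12 libraries of the series. All are poly(A) RNA-seq libraries of cerebral cortex from adult animals on a C57Bl/6 background, and every library title carries its own animal number. The remaining 6 libraries are wild types of the knock-in line (KI_WT, 3 libraries) and of the knock-out line (KO_WT, 3 libraries). The main fit takes them in, so the spread behind each edgeR test of KI over KO comes from all 12 libraries. The wild types also give the level of each line without the altered allele. KI and KO therefore differ in exon 5 and also in the line they were bred in, and for a direct comparison these cannot be told apart. The members of the comparison are all 17441 genes that passed a filter on low counts, of 41388 in the count table.

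Grin1 encodes GluN1, the subunit that every NMDA-type glutamate receptor contains and that binds the co-agonist glycine. Exon 5 encodes a short cassette, called N1, in the extracellular amino-terminal domain. Receptors that carry it are less sensitive to block by protons and by zinc, are less potentiated by polyamines and deactivate faster. Inclusion of the exon varies between brain regions, and cortical transcripts of wild-type mice are a mixture of both forms. The comparison sets the 2 extremes of that mixture against each other.

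The coding sequence at the junction is shown because exon 5 is the difference that the genotype labels name. Exon 5 is the 63-base coding exon at chr2:25311343-25311405 (GRCm38, minus strand), and its 21 codons keep the reading frame. It is present in 4 of the 8 annotated coding transcripts of Grin1 in GENCODE M21. In the lines that follow, read 5′ to 3′ on the coding strand from those transcripts, capitals mark exon 5 and lower case the 30 bases on either side.
Grin1 with exon 5: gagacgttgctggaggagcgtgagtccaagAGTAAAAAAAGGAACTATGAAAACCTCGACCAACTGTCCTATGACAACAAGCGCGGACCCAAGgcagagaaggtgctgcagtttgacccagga
Grin1 without exon 5: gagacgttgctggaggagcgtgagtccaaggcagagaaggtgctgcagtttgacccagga
By the genotype labels, KI transcripts hold the first form and KO transcripts the second. Exon 5 makes up 1.47% of the longest coding transcript, so a count over the whole gene cannot show which form a library holds.

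Levels are TMM-scaled CPM, which are read counts brought to a common library size, and a log2 fold change is always KI over KO unless another pair is named. The 6 libraries held 32661770 to 36514024 counts assigned to genes. Grin1 itself was at 334, 294 and 305 CPM in KI 1 to KI 3, and at 269, 340 and 313 CPM in KO 1 to KO 3. The 2 groups overlapped, with a log2 fold change of 0.02 (SE 0.0996; adjusted p = 0.989 by edgeR). It was -0.03 without KI 1 and -0.06 without KO 1. The gene count thus checks neither genotype label.

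The KO libraries differed from each other more than most of them differed from KI. Over genes of at least 1 CPM, the root mean square log2 difference between 2 libraries was 0.42 to 0.49 within KO and 0.28 to 0.35 within KI, and 0.30 to 0.42 between a KI and a KO library. Markers of neighbouring regions moved with single libraries. Olfactory bulb markers stood on average 1.34 log2 units above their 12-library mean in KO 1, and oligodendrocyte markers 0.66 units below it (-0.66) in KO 2. KO 2 also held 820 CPM of the astrocyte filament gene Gfap, against 214 in KO 1, 259 in KO 3 and 251 to 313 in KI. KO 1 carries an animal number far from those of the other 5 animals, and the labels do not say what the numbers mean. Summed cortical layer markers overlapped between the groups. The 13 upper-layer neuron markers summed to 1024 to 1119 CPM in KI and 1025 to 1154 CPM in KO. The 14 deep-layer markers summed to 838 to 858 CPM in KI and 842 to 1022 CPM in KO. Single members had log2 fold changes from -0.47 to 0.75 in the upper-layer list and from -0.52 to 0.28 in the deep-layer list. By Xist, 2 KI and 2 KO libraries were from females and 1 of each from males, so sex was even across the comparison. The wild types were not matched to them in sex. Xist and the Y-linked genes summed to 570.4 to 855.8 CPM in the KI and KO females and to 184.9 and 198.5 CPM in the males. The sum was 750.2, 218.1 and 234.2 CPM in KI_WT and 191.5, 204.0 and 219.6 CPM in KO_WT.

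A single gene passed the threshold. With edgeR's quasi-likelihood test and Benjamini-Hochberg adjustment over 17441 genes, 1 gene (0.00573%) had an adjusted p below 0.05, it was higher in KI, and no gene passed in the lower direction. The second smallest adjusted p was 0.465. At an unadjusted p below 0.05 there were 947 genes (5.43%), 318 higher (1.82%) and 629 lower (3.61%) in KI. The share higher among such genes was 33.6%, and it was 47.5% without KO 3, 44.7% with log2(RPKM + 0.1) and 27.2% with the KI and KO libraries fitted alone. The 3 KI libraries lay entirely above or entirely below the 3 KO libraries for 1779 genes (10.2%), 737 higher (4.23%) and 1042 lower (5.97%). DESeq2 called 12 of 17423 genes (0.0689%), the same gene in the higher direction and 11 in the lower. The quartiles of the log2 fold change over all genes were -0.11 and 0.10, and its median was 0.00.

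**Figure D1:**
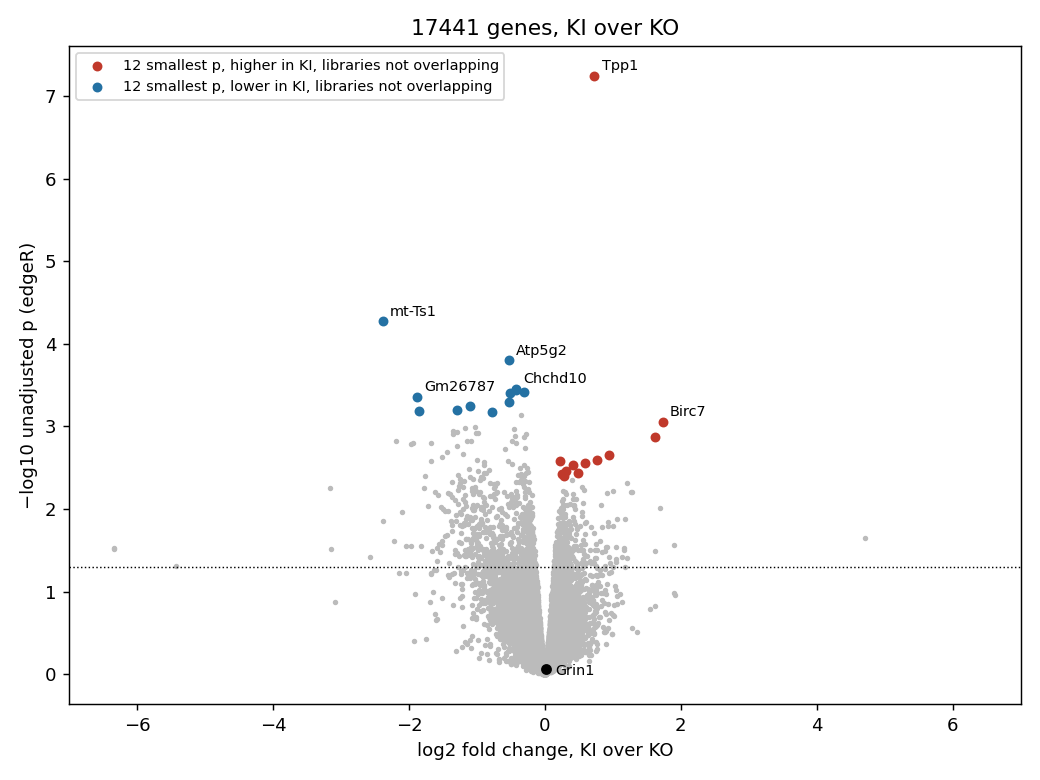
Each point is 1 of 17441 genes, with its log2 fold change of KI over KO on the x axis and −log10 of its unadjusted edgeR p on the y axis. The dotted line marks an unadjusted p of 0.05. Red and blue points are the 12 genes higher and the 12 lower in KI with the smallest p among genes whose libraries do not overlap. Tpp1, at a log2 fold change of 0.73, stands alone at the top, and Grin1 lies at 0.02 near the bottom.

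The called gene was Tpp1 (ENSMUSG00000030894; chr7:105744811-105752235, minus strand), the gene of tripeptidyl peptidase 1. The enzyme removes tripeptides from proteins in lysosomes, and in humans its deficiency leads to a neuronal ceroid lipofuscinosis of childhood. Tpp1 was at 80.0, 75.6 and 81.6 CPM in KI 1 to KI 3, and at 48.3, 46.1 and 48.6 CPM in KO 1 to KO 3. The highest KO library was far below the lowest KI library. The means were 79.1 ± 3.13 CPM in KI and 47.7 ± 1.37 in KO (SD, n = 3 each), a log2 fold change of 0.73 (95% interval 0.60 to 0.87; edgeR adjusted p = 9.98e-04). An exact two-sided permutation test over the 6 libraries gave p = 0.1, the smallest that 3 against 3 allow.

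Set beside the wild types, KO was the group that stood apart for Tpp1. KI_WT held 84.4, 78.3 and 84.1 CPM and KO_WT held 83.4, 87.2 and 88.2 CPM, so KI lay near both wild-type groups and every KO library below all 9 others. The wild types of the 2 lines differed by a log2 fold change of -0.07 (KI_WT over KO_WT), and the difference between the lines' values was 0.80 (SE 0.087; edgeR adjusted p = 0.0155). The log2 fold change of Tpp1 was 0.70 to 0.76 over 18 alternative settings. It was called in 17 of them. It was not called when the KI and KO libraries were fitted without the wild types, where it was 0.73 with an edgeR adjusted p of 0.123.

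**Figure D2:**
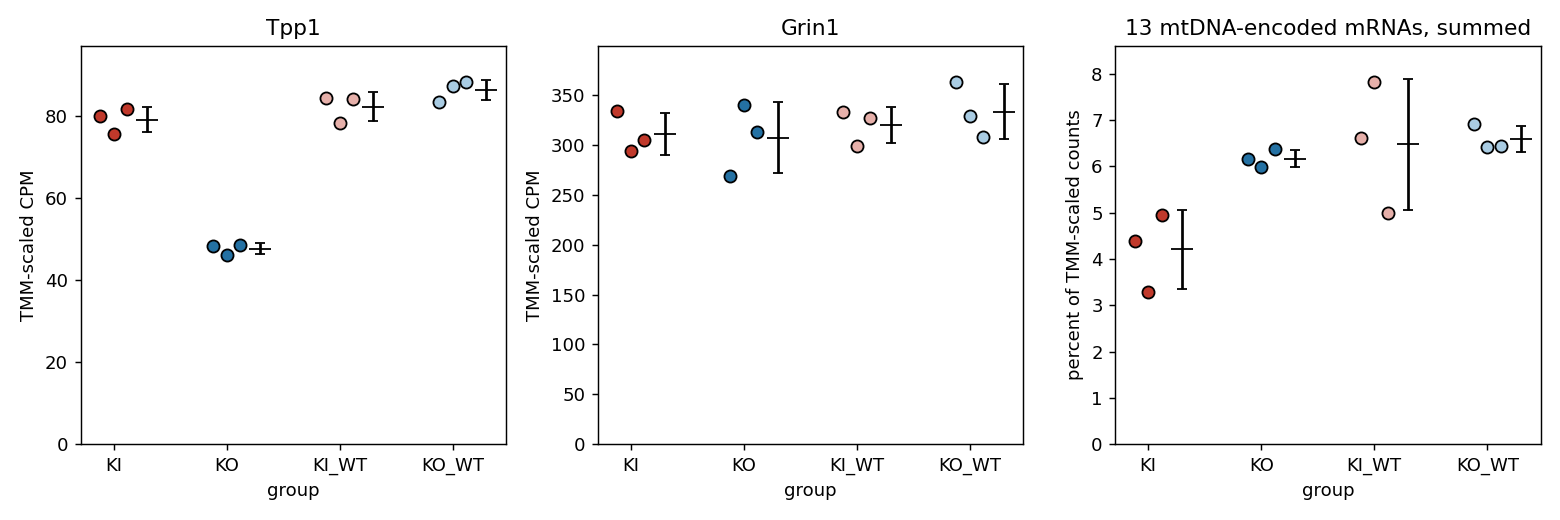
TMM-scaled CPM of Tpp1 (left) and Grin1 (middle), and the summed share of the 13 messenger RNAs encoded by mitochondrial DNA in percent of scaled counts (right), for the 3 libraries (points) of each group, with the mean and SD beside them. Tpp1 was at 75.6 to 81.6 CPM in KI and at 46.1 to 48.6 in KO, Grin1 overlapped in all groups, and the mitochondrial share was 3.28% to 4.96% in KI and 5.99% to 6.37% in KO.

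Other genes of the same storage diseases lay on both sides of 0. Of 13 ceroid lipofuscinosis genes tested, 6 were higher and 7 lower in KI (median log2 fold change -0.00), and Tpp1 was the only one called. Among 36 further lysosomal genes 24 were higher and 12 lower in KI with a median of 0.06, and none was called. Scarb2, the receptor that carries glucocerebrosidase to lysosomes, had the smallest p of them in the higher direction, with 94.6, 90.2 and 91.7 CPM in KI and 74.2, 80.5 and 90.2 CPM in KO. Only 1 of the 36 had non-overlapping libraries (2.78%, against 10.2% of all genes). It was Tfeb, a transcription factor of lysosomal genes, at 6.11, 6.13 and 6.60 CPM in KI and 5.01, 5.74 and 5.80 CPM in KO. The chromosomal neighbours of Tpp1 had both signs: 9 of the 23 genes tested within 1 Mb were higher and 14 lower in KI, with a median of -0.04, and none was below an unadjusted p of 0.05.

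None of the NMDA receptor subunits passed the test, and none had non-overlapping libraries. Of the 6 that passed the filter (Grin3b did not), 5 were higher in KI. Their median log2 fold change was 0.09, and -0.01 without KO 1. Grin2b, a glutamate-binding subunit prominent early in development, was at 541, 376 and 531 CPM in KI and at 253, 382 and 490 CPM in KO (log2 fold change 0.37, SE 0.22). Grin2a, the glutamate-binding subunit of mature synapses, was at 18.0, 9.50 and 20.8 CPM in KI and at 3.75, 14.0 and 18.8 CPM in KO (0.40, SE 0.43). For both genes the lowest of the 6 libraries was KO 1. Grin2c and Grin2d, the other glutamate-binding subunits, had log2 fold changes of 0.10 (SE 0.087) and 0.09 (SE 0.15), and the glycine-binding Grin3a had -0.05 (SE 0.11).

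The antisense transcript inside Grin1 had lower values in KI. Grin1os (ENSMUSG00000085830; chr2:25291220-25298925, plus strand) was at 10.02, 6.16 and 8.29 CPM in KI and at 13.01, 17.7 and 11.2 CPM in KO. The groups did not overlap, the log2 fold change was -0.78 (SE 0.24), and it did not pass (edgeR adjusted p = 0.878). The strand setting of the counting is not given in the sources used here, so reads of Grin1 and of its antisense partner may not have been told apart. Within 1 Mb of Grin1, 58 genes were tested, of which 32 were higher and 26 lower in KI. Of these 58, 9 (15.5%) had non-overlapping libraries, against 10.2% of all genes, and none was called, with a median of 0.01.

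Other receptor and synapse genes gave no calls. The list of AMPA receptor pore and auxiliary subunits, which also holds some receptor regulators, had 14 of 20 members higher in KI and a median of 0.03. Gria2, the subunit that makes AMPA receptors impermeable to calcium, was at 990, 984 and 974 CPM in KI and at 1215, 1038 and 1122 CPM in KO (-0.19, SE 0.089; adjusted p = 0.905 by edgeR). Among 7 metabotropic glutamate receptors 5 were lower in KI. Grm8, a presynaptic receptor, was at 4.53, 10.8 and 8.00 CPM in KI and at 16.1, 18.6 and 15.0 CPM in KO (-1.09, SE 0.52). Grm8 varied as widely among wild types, being 3.59 to 25.9 CPM in KI_WT and 15.7 to 20.7 in KO_WT. Postsynaptic density genes were higher in KI for 27 of 33, by a median of 0.07, which was 0.02 without KO 1 and 0.21 without KO 3. Of the 33, 1 had non-overlapping libraries (3.03%, against 10.2% of all genes). This was Ppp1r9b (spinophilin), which targets a phosphatase to dendritic spines, at 851, 799 and 794 CPM in KI and 679, 726 and 761 CPM in KO. For presynaptic release genes (14 higher, 15 lower), GABA synapse genes (9 and 13), potassium and HCN channels (20 and 21) and calcium channels (7 and 8) the median lay between -0.02 and 0.00. The median of 20 immediate early genes, which neuronal activity induces, was 0.03 with 11 higher. Npas4, one of the most activity-selective of them, was at 16.2, 7.65 and 7.71 CPM in KI and 17.6, 12.2 and 18.8 CPM in KO (-0.62, SE 0.26). For Npas4 the wild types of the lines differed in the other direction, by 0.75 (SE 0.26) for KI_WT over KO_WT, without overlap.

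Genes tied to the modulators that act through the amino-terminal domain gave small differences. In polyamine metabolism 6 genes were higher and 8 lower in KI. Sms, spermine synthase, was at 140, 138 and 133 CPM in KI and 131, 119 and 132 CPM in KO, and Sat2, a thialysine acetyltransferase related to the polyamine acetyltransferase, at 6.56, 6.90 and 7.04 CPM in KI and 7.75, 7.66 and 9.61 CPM in KO. Both genes had non-overlapping libraries and neither was called. Of 24 zinc transporters and metallothioneins 13 were higher and 11 lower with a median of 0.00. Slc39a9, a zinc transporter, was at 61.6, 56.3 and 59.9 CPM in KI and 48.8, 54.3 and 55.5 CPM in KO (0.16, SE 0.069), and the metallothionein Mt2 at 107, 83.4 and 92.4 CPM in KI and 125, 94.9 and 141 CPM in KO (-0.35, SE 0.14). For Mt2 the wild types of the lines differed by a like amount, -0.32 (SE 0.14) for KI_WT over KO_WT, without overlap. Among 23 carbonic anhydrases and acid-base transporters 14 were higher and 9 lower. Slc4a10, a neuronal bicarbonate transporter, was at 329, 291 and 323 CPM in KI and 335, 485 and 342 CPM in KO (-0.30, SE 0.14), and Slc4a3, an anion exchanger, at 99.2, 114 and 97.0 CPM in KI and 84.0, 89.5 and 96.3 CPM in KO (0.20, SE 0.094). Of 13 genes that handle the co-agonists glycine and D-serine 7 were higher. Gldc, the glycine-cleaving decarboxylase of astrocytes, was at 34.6, 37.1 and 37.8 CPM in KI and 32.4, 20.5 and 34.3 CPM in KO (0.33, SE 0.15), and its low value was that of KO 2. None of these genes had an edgeR adjusted p below 0.905.

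Messenger RNAs encoded by mitochondrial DNA took a smaller share of the counts in KI. They encode core subunits of the respiratory chain and of ATP synthase. Summed over 13 genes they made up 4.39%, 3.28% and 4.96% of the scaled counts in KI 1 to KI 3, and 6.15%, 5.99% and 6.37% in KO 1 to KO 3. All 3 KI libraries were lower than all 3 KO libraries. The means were 4.21% ± 0.855 in KI and 6.17% ± 0.19 in KO (SD, n = 3 each), a ratio of 0.683, and the exact two-sided permutation test gave its smallest possible p of 0.1. The wild types were at 6.61%, 7.82% and 5.0% in KI_WT and at 6.91%, 6.42% and 6.45% in KO_WT, and KO lay within their range. Every KI library was below every wild-type library in this sum, but KI 3 (4.96%) and KI_WT 3 (5.0%) nearly met. By gene, KI 3 was above KI_WT 3 in mt-Cytb, mt-Nd1, mt-Nd2 and mt-Nd5. It was below KI_WT 3 in mt-Co1, mt-Nd4 and mt-Nd6.

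The lower share came from 7 abundant genes. Of the 13 genes 9 were lower and 4 higher in KI, none was called, and the median log2 fold change was -0.46, against 0.00 over all genes. It was -0.57 without KI 3 and -0.32 without KI 2, and 0.05 between the wild types. The 7 genes above 100 CPM in KO were all lower without overlap (mt-Nd1, mt-Nd2, mt-Nd4, mt-Nd5, mt-Nd6, mt-Co1 and mt-Cytb). The largest difference was in mt-Nd4, a complex I subunit, at 2718, 1373 and 2802 CPM in KI and 4461, 4232 and 4184 CPM in KO (-0.90, SE 0.24). The catalytic subunit of cytochrome c oxidase, mt-Co1, was at 19220, 15440 and 21440 CPM in KI and 26090, 25800 and 26760 CPM in KO (-0.49, SE 0.15). mt-Nd6, the only messenger RNA of the light strand, was at 167, 185 and 210 CPM in KI and 313, 251 and 281 CPM in KO (-0.59, SE 0.15).

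The other 6 mitochondrial messenger RNAs were measured far below these, and 4 of them were higher and 2 lower in KI. Per length, mt-Co2, mt-Co3, mt-Atp6, mt-Atp8, mt-Nd3 and mt-Nd4l, which lie side by side between positions 7013 and 10173 of the mitochondrial genome, were at 3.90 to 87.9 RPKM in KO, against 550 to 17200 RPKM for the 7 abundant genes. A near-identical copy of mitochondrial sequence in the nuclear genome can share reads with such genes, so the values of these 6 are uncertain. mt-Co2 was higher in KI without overlap, at 14.9, 18.7 and 14.4 CPM in KI and 13.7, 9.63 and 10.1 CPM in KO. mt-Co3, the most abundant of the 6, was at 55.2, 50.2 and 61.7 CPM in KI and 78.0, 64.4 and 61.5 CPM in KO (-0.29, SE 0.13), with overlap. The 2 mitochondrial ribosomal RNAs overlapped between the groups, with log2 fold changes of -0.23 (SE 0.15) for mt-Rnr1 and -0.13 (SE 0.14) for mt-Rnr2.

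The second smallest p of the comparison belonged to a mitochondrial transfer RNA gene. mt-Ts1 (ENSMUSG00000064352; chrM:6870-6938, minus strand), a serine transfer RNA, was at 1.16, 0.485 and 0.701 CPM in KI and 5.21, 4.28 and 2.85 CPM in KO. The groups were well apart, with a log2 fold change of -2.39 (SE 0.39), yet the edgeR adjusted p was 0.465, and DESeq2 gave 9.38e-06. The annotated gene overlaps the last bases of mt-Co1 on the other strand, so reads there cannot be told apart from those of that far more abundant transcript unless strand was used. Its wild-type means were 1.97 CPM in KI_WT and 2.82 in KO_WT, between those of KI and KO.

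Of the other 11 genes lower in KI with the smallest p, 4 encode mitochondrial proteins, a grouping made after their values were seen. Atp5g2, which encodes the c subunit of the ATP synthase rotor, was at 33.4, 27.6 and 30.1 CPM in KI and at 47.4, 45.1 and 38.7 CPM in KO (log2 fold change -0.53, SE 0.097). Chchd10, a protein of the intermembrane space mutated in motor neuron disease, was at 67.8, 61.8 and 59.2 CPM in KI and 84.7, 93.5 and 76.1 CPM in KO (-0.43, SE 0.087). Mpc1, a subunit of the carrier that brings pyruvate into mitochondria, was at 54.0, 48.0 and 59.7 CPM in KI and 73.1, 70.2 and 72.4 CPM in KO (-0.42, SE 0.085). In each of the 3 genes every KI library was below every KO library, which was a condition for being among the 12 genes lower in KI. Apoo, a subunit of the complex that shapes the cristae, was at 33.9, 33.7 and 34.5 CPM in KI and 44.4, 41.5 and 40.1 CPM in KO (-0.30, SE 0.062). The edgeR adjusted p was 0.811 for all 4, and DESeq2 called them with adjusted p-values of 0.00810 for Atp5g2 and 0.0299 for the other 3.

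Across the nuclear respiratory chain genes the signs were mixed. Of 37 nuclear complex I genes 18 were higher and 19 lower, and of 39 genes of complexes II to V 18 were higher and 21 lower, with medians of -0.02 and -0.01. Non-overlapping libraries were all in the lower direction, 8 of the 37 and 6 of the 39, against 5.97% of all genes. Ndufa12, an accessory subunit of complex I, was at 68.8, 52.5 and 61.2 CPM in KI and 87.4, 87.5 and 75.1 CPM in KO (-0.45, SE 0.11). Ndufb4, another accessory subunit, was at 17.3, 15.7 and 18.7 CPM in KI and 27.8, 24.4 and 22.8 CPM in KO (-0.54, SE 0.14). Both lists changed sign when KO 1 was left out (0.05 and 0.07).

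Ribosomal and proteasome genes were lower more often than higher. Of 79 cytosolic ribosomal protein genes 48 were lower in KI, 12 of them without overlap (15.2%, against 5.97% of all genes) and none higher without overlap (against 4.23% of all genes). The median was only -0.05 and became 0.06 without KO 1. Rpl27, of the large subunit, was at 73.7, 58.0 and 63.7 CPM in KI and 103, 92.3 and 84.3 CPM in KO (-0.52, SE 0.11). Near-identical pseudogenes of ribosomal protein genes can share reads, which makes such values uncertain. Nop10, a small protein of the RNA-modifying H/ACA particles, was at 24.8, 19.7 and 25.6 CPM in KI and 35.3, 34.9 and 30.6 CPM in KO (-0.52, SE 0.11). Of 31 proteasome genes 21 were lower with a median of -0.06, and Psmb2, a core subunit, was at 54.3, 48.2 and 47.5 CPM in KI and 63.6, 74.4 and 55.1 CPM in KO. None of these genes was called by edgeR, while DESeq2 called Rpl27 and Nop10.

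**Figure D3:**
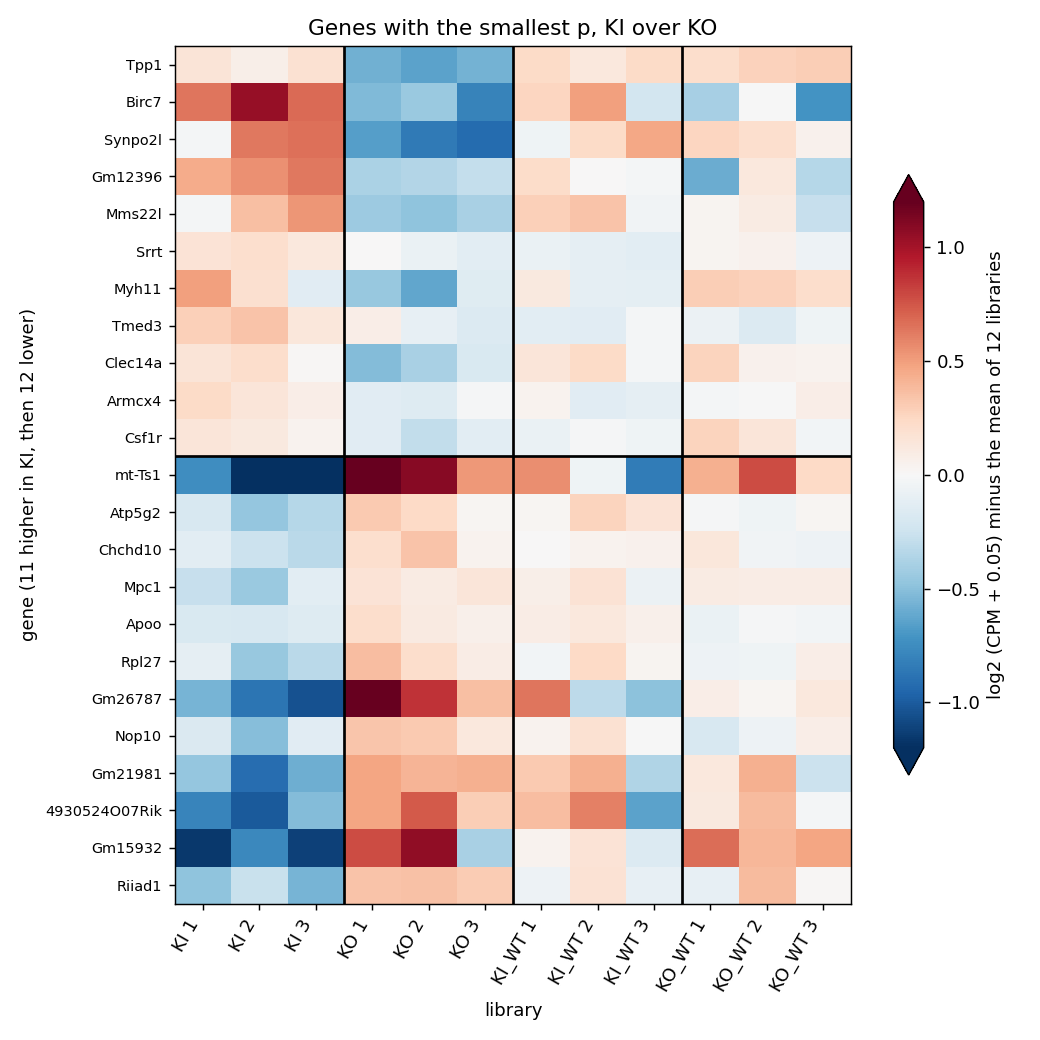
Rows are 11 of the 12 genes higher and then the 12 genes lower in KI with the smallest p among genes whose KI and KO libraries do not overlap, and columns are the 12 libraries by group. Colour gives log2 (CPM + 0.05) minus the gene's mean over the 12 libraries, cut at the ends of the scale. In Tpp1 the 3 KO libraries are low while KI lies near the wild types, and in the 12 lower genes the KI mean lies below and the KO mean above both wild-type means.

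In the 12 genes lower in KI the means of the 2 genotypes lay on opposite sides of those of the wild types. For all 12 the KI mean was below both wild-type means and the KO mean above both. Over all 17441 genes tested the first held for 6910, the second for 6661, and both for 1626. Among all 1042 genes lower in KI without overlap both held for 535. Since these genes were picked for a large distance between KI and KO, that position is a description. The other genes of the 12, besides those described, were the non-coding or little-described Gm26787, Gm21981, 4930524O07Rik, Gm15932 and Riiad1. Of these, 4930524O07Rik was the most abundant, at 1.64, 1.40 and 1.99 CPM in KI and 4.0, 4.82 and 3.54 CPM in KO (-1.30, SE 0.28). DESeq2 called 4930524O07Rik (adjusted p = 0.0300) and Gm21981 (adjusted p = 0.0478), which edgeR did not. It also called Ankrd12, a nuclear ankyrin-repeat protein gene, at 133, 124 and 139 CPM in KI and 163, 156 and 159 CPM in KO.

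After Tpp1, the genes higher in KI with the smallest p differed either strongly at very low levels or slightly at higher ones. Birc7, an inhibitor of apoptosis, was at 0.311, 0.428 and 0.321 CPM in KI and 0.110, 0.120 and 0.0829 CPM in KO (1.73, SE 0.39), and Synpo2l, an actin-associated gene of heart and skeletal muscle, at 0.198, 0.342 and 0.350 CPM in KI and 0.110, 0.0897 and 0.0829 CPM in KO (1.62, SE 0.39). Both lie at the low end of the genes tested. Among abundant genes, Srrt, which links capped RNA to microRNA processing, was at 76.8, 78.8 and 75 CPM in KI and 68.8, 65.0 and 62.9 CPM in KO (0.23, SE 0.061). Mms22l (DNA repair at stalled forks, 0.78, SE 0.20), Tmed3 (secretory cargo transport, 0.32, SE 0.087), Armcx4 (0.26, SE 0.072) and the pseudogene Gm12396 (0.95, SE 0.25) were also among the 12. Their edgeR adjusted p-values were 0.811 to 0.878. Of the 12 genes 9 had a KI mean above both wild-type means and 9 a KO mean below both. Over all 17441 genes tested this held for 6281 and 6375. The 12 were picked for a large distance between KI and KO, so their position is a description.

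Markers of vessels were higher in KI in nearly every case, without calls. In a bulk library fewer cells of a type and less RNA per cell cannot be told apart, here and for every marker that follows. All 10 mural cell markers were higher, by a median of 0.26 on the log2 scale, which was 0.25 to 0.39 with single libraries left out and -0.13 between the wild types. Myh11, the myosin of vascular smooth muscle, was at 16.2, 13.2 and 10.5 CPM in KI and 8.41, 7.48 and 10.4 CPM in KO (0.60, SE 0.16; edgeR adjusted p = 0.878). The endothelial markers were higher for 10 of 11 with a median of 0.17 (0.14 to 0.19 with single libraries left out). None of the 11 had non-overlapping libraries, against 10.2% of all genes. Flt1, a listed receptor for vascular endothelial growth factor, was at 80.8, 72.9 and 70.9 CPM in KI and 54.5, 58.7 and 72.0 CPM in KO. Clec14a, an endothelial receptor outside the list, was 1 of the 12 genes higher in KI with the smallest p. It was at 5.43, 5.65 and 4.91 CPM in KI and 3.37, 3.71 and 4.28 CPM in KO (0.49, SE 0.14). Blood transcripts were higher too, 6 of 7 by a median of 0.51, and summed to 70.7 to 108 CPM in KI and 58.4 to 93.7 CPM in KO. The alpha-globin gene Hba-a2 was at 3.90, 5.33 and 2.69 CPM in KI and 2.19, 1.2 and 2.38 CPM in KO, and its near-identical copy Hba-a1 had a log2 fold change of -0.15 (SE 0.20), although reads of these 2 can be shared. The part of blood left in the tissue in the vessel result was not tested.

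Of 9 oligodendrocyte precursor markers 8 were higher in KI, with a median of 0.15 (0.09 to 0.26 with single libraries left out) and -0.26 between the wild types. Cspg4, the NG2 proteoglycan that mural cells share, was at 15.6, 11.4 and 12.4 CPM in KI and 8.30, 10.4 and 10.8 CPM in KO (0.42, SE 0.14). Pdgfra, the growth factor receptor of these precursors, was at 88.8, 82.1 and 80.7 CPM in KI and 66.3, 51.6 and 79.2 CPM in KO, and Olig1, a lineage transcription factor, at 122, 116 and 110 CPM in KI and 88.7, 95.8 and 110 CPM in KO. The 3 genes did not overlap between the groups, which is 33.3% of the 9, against 10.2% of all genes. For Pdgfra and Olig1 the lowest KI and highest KO values nearly met, at 80.7 against 79.2 CPM and 110 against 110 CPM. Mature oligodendrocyte markers were higher for all 12 with a median of 0.19 and of -0.03 without KO 2. Mag, a glycoprotein of the myelin sheath, was at 167, 168 and 179 CPM in KI and 131, 124 and 182 CPM in KO, with KO 2 the lowest of the 6 libraries. Of 12 microglia markers 7 were higher and 5 lower in KI, with a median of 0.05. Csf1r, the survival receptor of these cells, was at 111, 109 and 103 CPM in KI and 91.5, 81.5 and 91.8 CPM in KO (0.29, SE 0.080; edgeR adjusted p = 0.878), and C1qb, a complement subunit, had a log2 fold change of -0.07 (SE 0.0997). For 12 astrocyte markers the median was 0.05, and -0.00 without KO 2.

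Neuronal layer markers showed no common direction. Upper-layer markers were higher for 7 of 13 and deep-layer markers for 6 of 14, with medians of 0.01 and -0.07. Otof, an upper-layer transcript, was at 23.7, 20.8 and 23.0 CPM in KI and 20.03, 7.54 and 12.6 CPM in KO (0.75, SE 0.30). Pcp4, abundant in deep layers, was at 191, 155 and 197 CPM in KI and 331, 194 and 241 CPM in KO (-0.50, SE 0.18). Interneuron markers were higher for 14 of 24 with a median of 0.05, and the neuropeptide gene Npy was at 33.0, 48.7 and 45.5 CPM in KI and 47.4, 113 and 52.7 CPM in KO, where KO 2 was the high library.

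Markers of tissue around the cortex varied widely between libraries. Choroid plexus markers were higher in KI for 11 of 11 with a median of 0.46, which was 0.22 to 0.71 with single libraries left out, and 1.22 between the wild types. Thalamus markers were higher for 12 of 13 with a median of 0.28, which was -0.06 without KO 1. Olfactory bulb markers had a median of -0.42, which turned to 0.62 without KO 1. Glucocorticoid response genes, lower in KI for 13 of 17 with a median of -0.15, were at 0.02 without KO 1. Among them Lcn2, an acute-phase gene, was at 22.7 CPM in KI 1 alone, at 0.20 and 0.234 in the other KI libraries and at 0.356, 0.150 and 0.359 in KO.

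**Figure D4:**
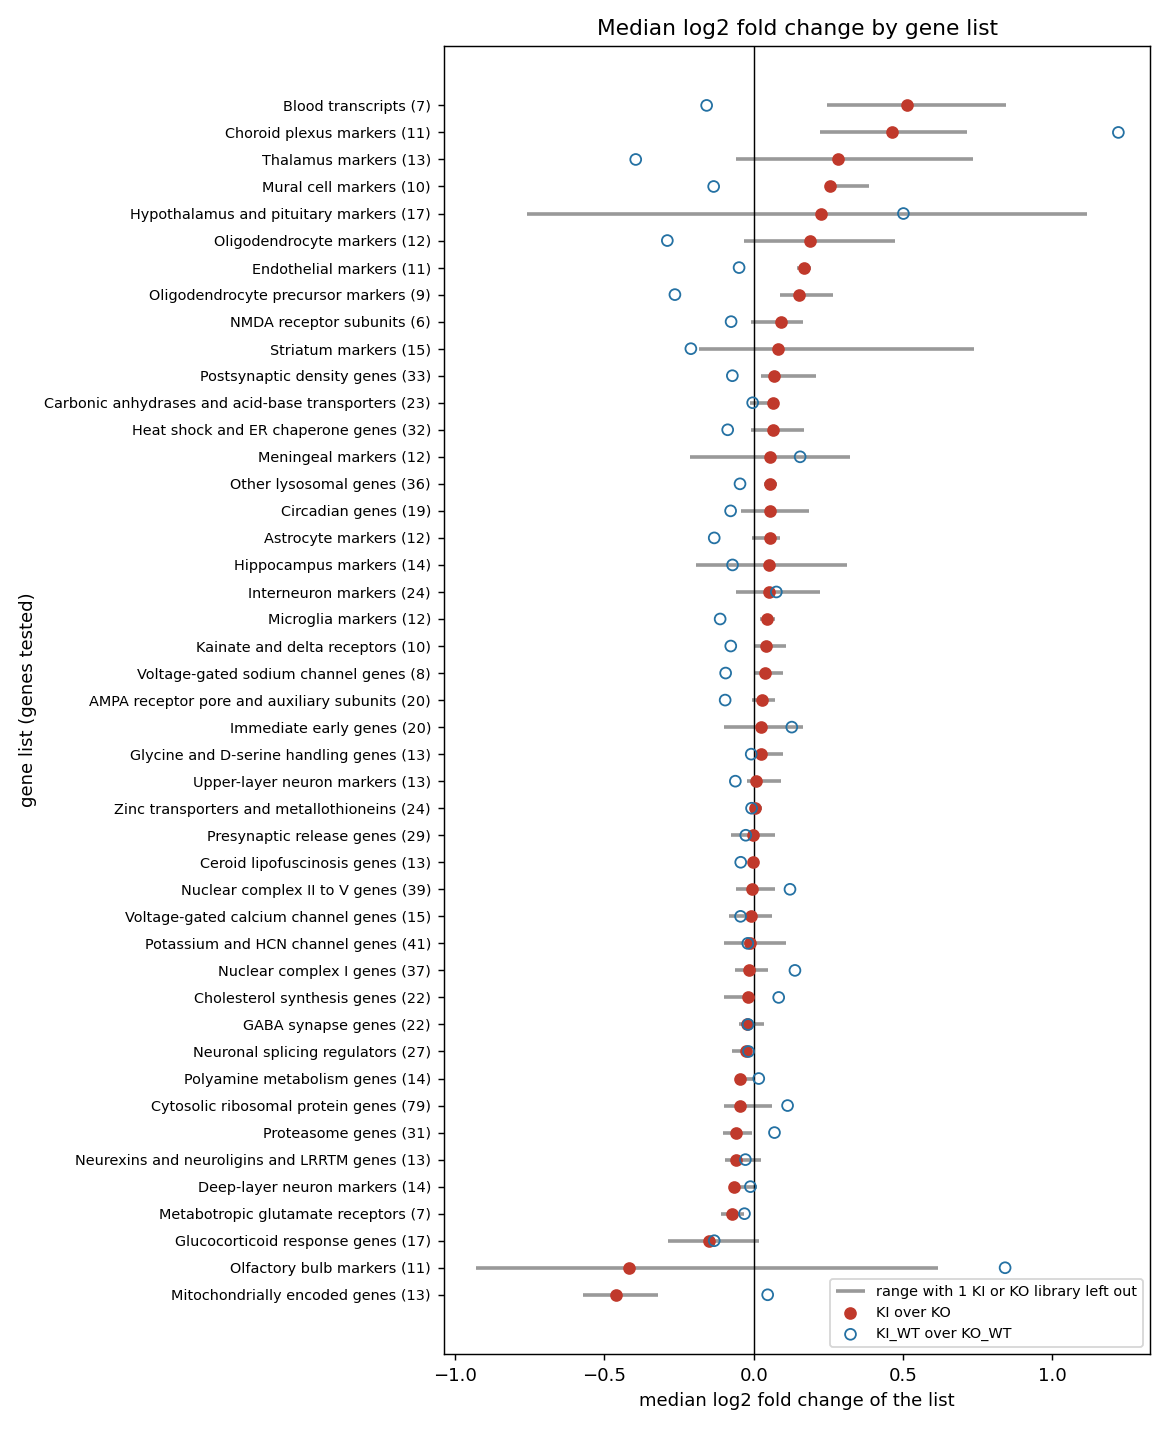
Median log2 fold change of KI over KO for each gene list (red points, number of genes tested in brackets), its range when 1 KI or KO library is left out (grey bars), and the median of KI_WT over KO_WT (open blue circles). Mitochondrially encoded genes (-0.46) and mural cell markers (0.26) keep their side of 0 throughout, and olfactory bulb markers span -0.93 to 0.62.

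Over the 46 lists, 45 held no called gene, and the remaining one was that of the ceroid lipofuscinosis genes with Tpp1. Of the list medians 15 kept their sign when any single KI or KO library was left out, and 31 did not. Wild types of the 2 lines showed no call by edgeR and 1.96% of genes at an unadjusted p below 0.05. Their libraries did not overlap for 1275 genes (7.31%). The median size of a log2 fold change was 0.10 for KI over KO and 0.09 for KI_WT over KO_WT. Of the genes whose KI and KO libraries did not overlap 36.0% had a difference of the same sign between the wild types, against 42.2% of all genes.

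Genes that were lower in KI tended to be shorter. Genes lower in KI without overlap had a median exonic length of 2926 bp and a GC content of 46.4%, genes higher in KI 4544 bp and 52.0%, and all genes tested 4042 bp and 49.7%. With genes split by length into 5 equal classes, 10.3% of the shortest class were lower and 3.09% higher without overlap, and 3.24% of the longest class were lower and 4.62% higher. Short genes as a class were highest in KO 1, a median of 0.10 log2 units above their 12-library mean, and the part of this library in the pattern was not tested.

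**Figure D5:**
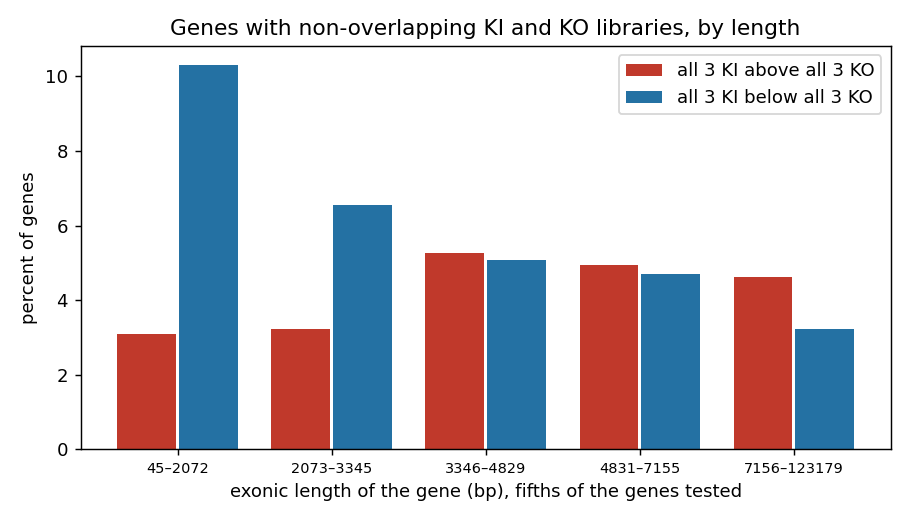
Share of genes, in percent, whose 3 KI libraries lie all above (red) or all below (blue) the 3 KO libraries, for 5 equal classes of exonic length. In the shortest class 10.3% lie below and 3.09% above, and in the longest 3.24% lie below and 4.62% above.

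Differences of 2-fold or more without overlap were mostly in the lower direction. Of 239 genes with such a difference 128 had non-overlapping libraries, 16 higher and 112 lower in KI. Of the 112 lower genes 83 (74.1%) were not protein coding, against 13.1% of all genes tested, and the median level in the higher group was 0.599 CPM. Of the 16 higher genes 12 (75%) were protein coding. Above 5 CPM there were 6 genes, all lower in KI, of which 5 were antisense or long intergenic RNAs and the remaining one was Grm8. RP23-457H19.1, an antisense RNA, was at 4.13, 2.42 and 2.98 CPM in KI and 6.82, 8.91 and 5.91 CPM in KO (-1.18, SE 0.28). Pcsk2os2, which lies opposite the prohormone convertase gene Pcsk2, was at 3.51, 1.23 and 2.22 CPM in KI and 4.88, 7.63 and 4.06 CPM in KO (-1.25, SE 0.36). In both genes KI 2 was the lowest library and KO 2 the highest. None of the 6 passed with edgeR (adjusted p = 0.811 to 0.905), while DESeq2 called RP23-457H19.1 (adjusted p = 0.0361). Unless the counting used strand, reads of an antisense RNA cannot be told apart from those of the gene opposite.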

How the data were processed

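Poly(A) RNA of adult mouse cortex was sequenced in 12 libraries, 3 in each of 4 groups taken from the mutation label. Per the submitters' processing notes, bcl2fastq 2.17, STAR 2.5.0c and Cufflinks 2.2.1 were used with GRCm38; the read counter, annotation and strand setting are not given in the sources used here. The authors deposited raw counts per gene (41388 genes, 0 columns unassigned) and RPKM values of the same genes, which correct for length and library total.

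Counts were fitted with edgeR 4.0.16 in R 4.3.3, by quasi-likelihood with TMM scaling and 1 mean per group over all 12 libraries (filterByExpr, 17441 genes, residual df 8, BCV 15.7%). P-values were adjusted by Benjamini-Hochberg over all genes, with a threshold of 0.05. Standard errors were derived from the F statistic. RPKM served for levels between genes and, with limma 3.58.1 on log2(RPKM + 0.1), for an alternative, so fold changes of low genes are understated there. The other alternatives were RLE scaling, other filters, a pseudocount of 1, DESeq2 1.42.0, limma voom, the 6 libraries alone, added terms and leaving out each library. In a test on simulated data with 200 of 17441 genes changed between KI and KO, the fit called 31% at 1.5-fold, 69.5% at 2-fold and 90% at 4-fold. Unchanged genes called in these runs numbered 1, 7 and 9. Each gene was drawn independently, so shifts shared by many genes of a library were not simulated.

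Named genes are the NMDA receptor subunits, every called gene, the 12 higher and 12 lower with the smallest p among genes with non-overlapping libraries, and the member of each list with the smallest p in each direction. A few genes picked this way are not reported here. Members with other values of interest, genes called by DESeq2, Grin1os, the mitochondrial genes and genes of 2-fold difference above 5 CPM were chosen after their values were seen. The comparison and the gene lists were chosen with earlier results of these data known. Coordinates, lengths and the exon 5 sequence come from GENCODE M21 (GRCm38).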

Additional observations from a re-analysis of the deposited data

Results flagged for a closer look

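Tpp1 differed between the lines in its change from wild type, while the wild types of the lines overlapped. Its log2 fold change was 0.73 for KI over KO and -0.07 for KI_WT over KO_WT, a difference of 0.80 (SE 0.087) that was tested as an interaction over all 12 libraries (edgeR adjusted p = 0.0155), and it was the only gene of 17441 called in that test (0.00573%). Within the lines the log2 fold change was -0.06 for KI over KI_WT and -0.86 for KO over KO_WT.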

How the results depend on the processing

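The number of genes called was 1 with RLE scaling, a minimum of 1 CPM, limma voom, log2(RPKM + 0.1), log2(RPKM + 1), each of 3 added terms and every library left out. It was 2 without a count filter (Tpp1 and mt-Ts1), 12 with DESeq2, 4 with log2(RPKM + 0.1) without a filter, and 0 in the KI and KO libraries alone, where 734 genes had an unadjusted p below 0.05. In that last fit Tpp1 had 0.73 (adjusted p = 0.123). The count at an unadjusted p below 0.05 was 947, 1449 with log2(RPKM + 0.1) without a filter, and 542 (without KI 2) to 1730 (without KO 3) with a library left out. Of the 947 genes 33.6% were higher in KI, against 44.7% with log2(RPKM + 0.1), 27.2% with the KI and KO libraries alone, and 34.1% (without KI 2) to 47.5% (without KO 3) with a library left out. Grin1 turned to -0.055 with a term for animal numbers under 200, and ranged over -0.062 to 0.10 with a library left out.

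No paired analysis was possible because replicates were numbered in record order and no label pairs animals of KI and KO. Other named genes kept their direction in all but 36 of 1946 values, and 10 of the 1946 values passed the threshold where the reported value did not. Values that changed sign under a setting other than a left-out library were 0.019 for Camk2g, 0.10 for Pdyn and 0.70 for Eif2s3y with regional terms, 0.44 for Tbx21 and 0.054 for Pdyn with the animal-number term, 0.12 for Pdyn with limma voom, -0.079 for Xist with a Y-linked term, and for Sox10 0.0021 without a count filter and 0.0078 and 0.0071 on the 2 RPKM scales. With a library left out, the values that crossed 0 were -0.025 to 0.86 for Grin2a, -0.0050 to 0.23 for Grin2d, -0.12 to 0.10 for Grin3a, -0.20 to 0.025 for Neto2, -0.12 to 0.085 for Camk2g, -0.46 to 0.060 for Doc2a, -0.027 to 0.22 for Gabrg3, -0.87 to 0.084 for Cacna1g, -0.41 to 5.28 for Lcn2, -0.78 to 0.11 for Wfs1, -0.045 to 0.052 for Sox10, -0.97 to 0.21 for Gfap, -0.25 to 0.025 for Slc2a1, -0.22 to 0.15 for Slc17a6, -3.08 to 0.31 for Tbx21, -0.42 to 0.30 for Pdyn, -0.39 to 0.077 for Hba-a1, -0.33 to 0.87 for Xist and -12.06 to 9.57 for Eif2s3y. The cause of these changes was not tested. On simulated data with the same group sizes, but without shifts shared by many genes of a library, 31% of genes changed 1.5-fold were called.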
